A study of Mus musculus with 4 samples.

Results

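The genes followed here are 8 receptors through which circulating and nerve-released signals act on heart muscle, namely Adrb1, Adra1a, Adra1b, Chrm2, Adora1, Agtr1a, Ednra and Ednrb. They were taken by symbol, and their probes were found through the RefSeq accession that the array files give for each spot. All 8 had a probe, out of 20886 named genes with one, and 7 of the 8 entered the tests across 20726 features. Adra1a did not, because its probe was not well above background on any array. The rule uses no measured value, but the genes were chosen with earlier results of these data known.

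The cells were cardiomyocytes grown from CGR8, a mouse embryonic stem cell line, so all samples come from 1 line and no donor animals are involved. The siErbB4 samples were transfected with a small interfering RNA against Erbb4, a neuregulin receptor tyrosine kinase, and the siScr samples with a scrambled RNA. Both were exposed for 48 hours with the same transfection agent, in low-glucose medium with 2% serum, and each group held 2 samples, numbered 1 and 2. Total RNA was read on 1-colour Agilent arrays, 1 for each sample, and the 4 arrays shared a slide and a scan. Groups were taken from the sample titles and the transfection field. Against them, a scrambled RNA is given in the description field of each siErbB4 sample, and ErbB5 stands in the source name of siErbB4 replicate 2. An incubation of 6 or 24 hours is also given, not tied to particular samples. Nothing tells whether samples 1 and 2 were separate cultures, and a p-value here covers only the spread between these samples, which may be technical.

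These receptors belong to the G protein-coupled family. The beta-1 receptor raises cyclic AMP through the stimulatory G protein and drives heart rate and force, and the muscarinic and adenosine receptors oppose it through inhibitory G proteins. The alpha-1, angiotensin and endothelin receptors act mainly through Gq and phospholipase C, a route known in heart muscle for its link to hypertrophic growth.

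The target of the knockdown could not be used as a check of the labels. The single Erbb4 probe with a symbol here had processed signals of 15.0 and 2.83 in siErbB4 replicates 2 and 1, against 11.9 and 9.02 in siScr replicates 2 and 1, and was well above background on 1 array, siErbB4 replicate 2. So each direction given here between siErbB4 and siScr rests on those labels. Directions between the replicate numbers rest on the numbers in the sample titles. The 75th percentile of processed signal was 878 to 989 over the arrays, 64.8% to 68.5% of probes were well above background, and 0 spots were saturated. All 10 listed cardiomyocyte markers were well above background on every array, among them the myosin gene Myh6, at signals of 200534 to 234159. Bulk arrays cannot tell fewer cells of a type from less RNA per cell.

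None of the receptors passed the test between siErbB4 and siScr samples. By limma with Benjamini-Hochberg adjustment 0 of 7 receptors were called, as were 0.0% of all features, and 0 of 7 had an unadjusted p under 0.05, against 1.77% of all features. The log2 differences (siErbB4 minus siScr) ran from -0.13 for Chrm2 to 0.29 for Agtr1a. They were positive at 4 receptors and negative at 3, with a median of 0.15, beside -0.01 over all features, of which 47.2% were positive. At 6 of 7 receptors the groups overlapped, and they did not overlap at 29.0% of all features, 13.1% with siErbB4 higher and 15.9% with siErbB4 lower. With 2 arrays a group, the smallest two-sided p of an exact permutation test is 0.333.

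The larger differences lay between the replicate numbers. Adrb1 rose to 1.99-fold in the arrays numbered 2 relative to those numbered 1, and Agtr1a stood next in size at 1.84-fold without passing the test. Of the 7 receptors 1 was called by limma, where 5.23% of all features were called, 2.89% higher and 2.34% lower. An unadjusted p under 0.05 was found at 4 of 7 receptors and 23.0% of all features. The difference was positive at 6 of 7 receptors and 53.0% of all features. At 6 of the 7 both arrays numbered 2 lay above both numbered 1, where 29.4% of all features showed that order, 26.0% the opposite one and 55.5% no overlap in either direction. Nothing in the labels says how the numbers differ.

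**Figure D1:**
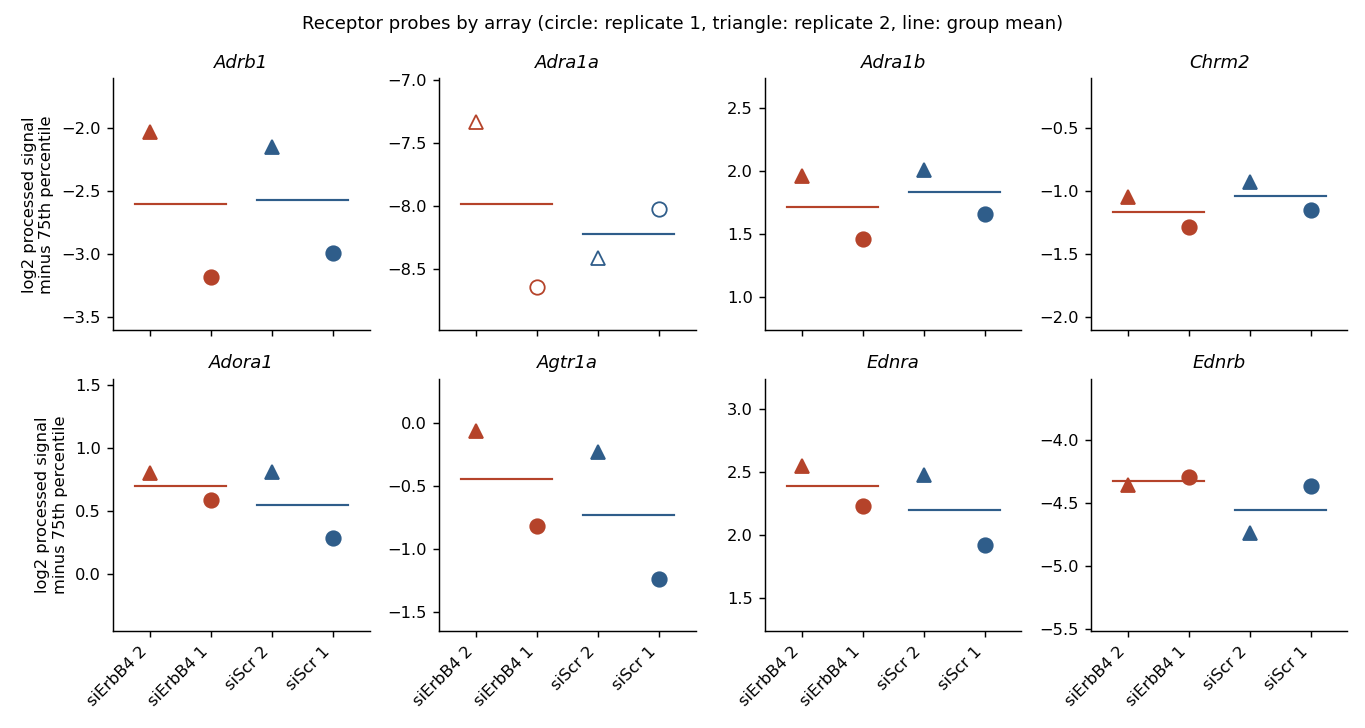
Scaled level as log2 of the signal over its array's 75th percentile (y axis, 2 log2 units in each panel) for the probe used of each receptor on the 4 arrays (x axis), with replicate 2 as triangles, replicate 1 as circles and group means as lines. Triangles lie above circles of the same colour in all panels except Ednrb and, for siScr, Adra1a, whose open symbols mark values not well above background.

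Adrb1 encodes the beta-1 adrenergic receptor, the main receptor for noradrenaline in heart muscle. Its brighter probe had processed signals of 229.7 and 104 in siErbB4 replicates 2 and 1, against 198 and 125 in siScr replicates 2 and 1. Each transfection group thus holds 1 high and 1 low array, and the groups overlap completely. On the scaled log2 level siErbB4 averaged -2.60 ± 0.81 and siScr -2.57 ± 0.59 (SD, n = 2 each), a difference of -0.03 (SE 0.51, 95% interval -1.45 to 1.38, adjusted p by limma 1.00). Within replicate number 2 the siErbB4 minus siScr difference was 0.12, and within number 1 it was -0.19, so its sign differs between the numbers. A siErbB4 minus siScr difference of at least that size was found at 85.4% of all features.

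Between the numbers, the Adrb1 arrays did not overlap. Replicate 2 averaged -2.09 ± 0.08 and replicate 1 -3.08 ± 0.13 (SD, n = 2 each), a log2 difference of 0.99 (SE 0.13, 95% interval 0.66 to 1.32, adjusted p by limma 0.0308). The difference was 1.15 within siErbB4 and 0.84 within siScr. The dimmer Adrb1 probe showed the same order, at 81.9 and 54.4 in siErbB4 replicates 2 and 1 and 83.0 and 51.1 in siScr replicates 2 and 1. A replicate difference of at least that of Adrb1 in size was found at 5.34% of all features. The call rests on few arrays: it ended when siErbB4 replicate 2, siScr replicate 1 or siScr replicate 2 was left out. Each such fit leaves 1 array in a group, and most calls over all features ended there too. The fit without siErbB4 replicate 1 also leaves 1 array in a group, and there the Adrb1 call stayed, at a log2 difference of 0.90. Why these fits differ was not tested. The log2 difference stayed between 0.90 and 1.09 with any 1 array left out. The Adrb1 call also ended when dim probes were kept in the test (adjusted p by limma 0.133), at the same difference. Under that setting 0 features were called over the whole array. With normexp background correction the difference was 0.63.

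The alpha-1 receptors gave 1 gene well above background and 1 that was not. Adra1b, the alpha-1B adrenergic receptor, had signals of 3643 and 2600.1 in siErbB4 replicates 2 and 1, against 3528 and 3120.3 in siScr replicates 2 and 1. The 2 arrays numbered 2 are the highest and the siErbB4 array numbered 1 the lowest. The siErbB4 minus siScr log2 difference was -0.12 (SE 0.25, 95% interval -0.80 to 0.56), and replicate 2 minus replicate 1 gave 0.42 (SE 0.12, adjusted p by limma 0.136). A dimmer Adra1b probe read 184 and 134 in siErbB4 replicates 2 and 1, and 187 and 128 in siScr replicates 2 and 1, with a replicate difference of 0.59. Adra1a, the alpha-1A receptor, was read at 5.82 and 2.37 in siErbB4 replicates 2 and 1, against 2.58 and 3.79 in siScr replicates 2 and 1. All 4 lie under 9.63, the lowest signal of any probe well above background on any array, so Adra1a has no fold here.

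The receptors coupled to inhibitory G proteins passed neither test. Chrm2, the M2 muscarinic receptor that slows the heart under vagal acetylcholine, read 453 and 387 in siErbB4 replicates 2 and 1, against 462 and 446 in siScr replicates 2 and 1. Its 4 arrays spanned 0.36 on the log2 scale, with siErbB4 minus siScr at -0.13 (SE 0.17, 95% interval -0.60 to 0.34) and replicate 2 minus replicate 1 at 0.23 (SE 0.12). Adora1, the A1 adenosine receptor, read 1630.4 and 1421 in siErbB4 replicates 2 and 1, against 1537 and 1204 in siScr replicates 2 and 1. The siScr array numbered 1 is the low one, and the siErbB4 minus siScr difference was 0.31 within number 1 and -0.01 within number 2. Over all arrays that difference was 0.15 (SE 0.23, 95% interval -0.50 to 0.80), and the replicate difference was 0.37 (SE 0.14, adjusted p by limma 0.229).

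Agtr1a encodes the type 1a angiotensin II receptor, which signals through Gq. Its probe read 895 and 534 in siErbB4 replicates 2 and 1, against 749 and 419 in siScr replicates 2 and 1. Within each number the siErbB4 array is the higher, and the arrays numbered 2 lie above both numbered 1. The siErbB4 minus siScr difference was 0.29 (SE 0.46, 95% interval -0.98 to 1.56), made of 0.16 within number 2 and 0.42 within number 1. Replicate 2 minus replicate 1 gave 0.88 (SE 0.18, 95% interval 0.41 to 1.35, adjusted p by limma 0.0687), or 0.75 within siErbB4 and 1.01 within siScr. Agtr1a passed the threshold in place of missing it with normexp (adjusted p by limma 0.0147), with transfection as a term in the fit (0.0365) and without siErbB4 replicate 1 (0.0397). Agtr1b is a close copy of Agtr1a, and its own probe was not well above background on any array, at signals of 2.87 to 6.14.

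The endothelin receptors differed from each other in their order over the arrays. Ednra, which carries the contractile and growth signal of endothelin-1 in muscle cells, read 5480.4 and 4421 in siErbB4 replicates 2 and 1, against 4882 and 3747 in siScr replicates 2 and 1. The arrays numbered 2 are the high ones in both groups. The siErbB4 minus siScr difference was 0.19 (SE 0.26, 95% interval -0.52 to 0.90) and the replicate difference 0.44 (SE 0.15, adjusted p by limma 0.176). Ednrb, the B-type receptor best known in endothelium and neural crest cells, read 45.8 and 48.0 in siErbB4 replicates 2 and 1, against 32.9 and 48.0 in siScr replicates 2 and 1. Only the siScr array numbered 2 stands apart there.

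Ednrb was the 1 receptor of 7 whose groups did not overlap between siErbB4 and siScr, and its 2 probes disagreed. On the scaled log2 level the brighter probe gave -4.36 and -4.30 in siErbB4 replicates 2 and 1, against -4.74 and -4.37 in siScr replicates 2 and 1, a difference of 0.23 (SE 0.18, 95% interval -0.28 to 0.73). The other probe, at signals of 25.9 and 29.1 in siErbB4 replicates 2 and 1 and 27.5 and 50.2 in siScr replicates 2 and 1, gave a difference of -0.45. With the mean of both probes the value was -0.11. No direction can be given for Ednrb between the groups.

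**Figure D2:**
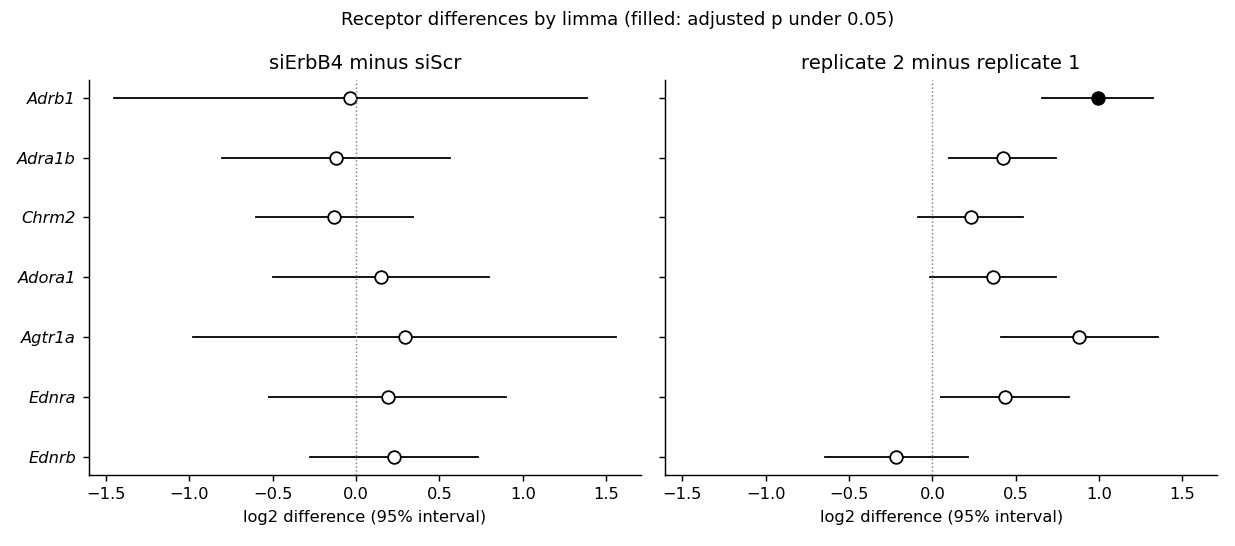
Log2 differences of the 7 tested receptors with 95% intervals from limma (x axis), siErbB4 minus siScr on the left and replicate 2 minus replicate 1 on the right. All 7 intervals on the left include 0, and on the right Adrb1, the filled symbol at 0.99, is the one called.

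The start regions are shown for Adrb1, the receptor called between the numbers, and for Ednra and Adora1, whose arrays numbered 2 lay above those numbered 1 without a call. Of the receptors in the table, these are the ones whose 250 bases before the listed start lie wholly outside the annotated gene. The start table held 6 of the 8 receptors, all but Adra1a and Agtr1a. The sequences are from RefSeq on build GRCm38.p6, 5′ to 3′ on the gene's strand, at chr19:56721867-56722116 (plus strand) for Adrb1, chr8:77724453-77724702 (minus strand) for Ednra and chr1:134235458-134235707 (minus strand) for the first of the 2 Adora1 entries. Capitals mark matches on either strand to the GC box GGGCGG, the TATA motif TATAAA, the CCAAT box, the cyclic AMP response half-site TGACG or the GATA motif AGATAA.
Adrb1: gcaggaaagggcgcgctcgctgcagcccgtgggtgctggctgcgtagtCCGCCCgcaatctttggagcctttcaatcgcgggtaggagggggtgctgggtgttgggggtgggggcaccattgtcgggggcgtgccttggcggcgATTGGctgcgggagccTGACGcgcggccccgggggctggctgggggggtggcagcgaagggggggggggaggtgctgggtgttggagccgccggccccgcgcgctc
Ednra: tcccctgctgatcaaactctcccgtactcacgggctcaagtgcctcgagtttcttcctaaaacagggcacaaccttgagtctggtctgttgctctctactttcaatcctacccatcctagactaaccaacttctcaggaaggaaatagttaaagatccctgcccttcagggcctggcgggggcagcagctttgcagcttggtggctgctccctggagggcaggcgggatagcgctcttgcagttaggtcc
Adora1: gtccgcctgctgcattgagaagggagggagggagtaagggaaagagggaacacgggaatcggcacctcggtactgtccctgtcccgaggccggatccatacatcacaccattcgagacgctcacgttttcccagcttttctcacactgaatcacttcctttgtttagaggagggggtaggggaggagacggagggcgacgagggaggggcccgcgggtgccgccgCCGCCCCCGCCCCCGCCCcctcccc
Adrb1 held 1 GC box, 1 CCAAT box and 1 TGACG, the last starting at -90 from the listed start. Adora1 held 3 GC boxes, adjacent and not overlapping, and Ednra none of the 5 motifs. Of 32851 RefSeq start regions of this length, 32.7% held GGGCGG, 33.8% CCAAT, 17.8% TGACG, 12.4% TATAAA and 9.99% AGATAA. A match describes letters in this window, and no match says only that these letters are not in it.

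The wider pathway was followed in a list of 73 related receptors, ligands, enzymes, G proteins, effectors and regulators, of which 63 were tested. Between siErbB4 and siScr 0 of 63 were called by limma and 0 had an unadjusted p under 0.05, against 0.0% and 1.77% of all features. Their log2 differences were positive at 26 and negative at 37, with a median of -0.03. Over all features 47.2% were positive and the median was -0.01. Between the replicate numbers 10 of 63 (15.9%) were called, 6 higher and 4 lower in the arrays numbered 2, with a median of 0.0025. Over all features 5.23% were called, 2.89% higher and 2.34% lower, which is the background for the counts in each role too. All 10 were well above background on every array. With dim probes kept in the test all 10 calls ended, and 0 features were called over the whole array. Leaving out siErbB4 replicate 2, siScr replicate 1 or siScr replicate 2 leaves 1 array in a group. Calls were then lost at these genes and over all features alike, so the loss is not particular to this list. Leaving out siErbB4 replicate 1 also leaves 1 array in a group, but there all of these calls except that of Nt5e stayed. Calls over all features did not fall there either, and why the fits differ was not tested.

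Among related receptors 2 of 7 tested were called, in opposite directions. Adra2c, the alpha-2C adrenergic receptor, read 90.8 and 26.2 in siErbB4 replicates 2 and 1 and 82.8 and 40.7 in siScr replicates 2 and 1. It rose 2.83-fold in the arrays numbered 2 (SE 0.21 on the log2 scale, adjusted p by limma 0.0349). Adra2a, the alpha-2A receptor, read 37.9 and 78.8 in siErbB4 replicates 2 and 1 and 37.5 and 97.2 in siScr replicates 2 and 1, and fell by 1.13 on the log2 scale (SE 0.13, adjusted p by limma 0.0269). With normexp the log2 differences were 0.62 for Adra2c and -0.47 for Adra2a.

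Of the ligands and enzymes 3 of 13 tested were called. Edn1, the precursor of endothelin-1 and so the ligand of Ednra and Ednrb, read 289.6 and 525 in siErbB4 replicates 2 and 1 and 279.6 and 718 in siScr replicates 2 and 1. It fell in the arrays numbered 2 by 1.02 on the log2 scale (SE 0.16, adjusted p by limma 0.0454). Pnmt, the enzyme that turns noradrenaline into adrenaline, rose by a log2 difference of 1.15 (SE 0.13, adjusted p by limma 0.0254), at 209.9 and 94.2 in siErbB4 replicates 2 and 1 and 216 and 111 in siScr replicates 2 and 1. Nt5e, the ectoenzyme that makes adenosine outside the cell, rose by a log2 difference of 0.82 (SE 0.13, adjusted p by limma 0.0406), at 2285 and 1369 in siErbB4 replicates 2 and 1 and 2467 and 1495 in siScr replicates 2 and 1. Its call also ended without siErbB4 replicate 1 (adjusted p by limma 0.0658).

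The G proteins and effectors gave 1 call of 11 and 3 of 15. Gnao1, the alpha subunit of the Go protein, rose by a log2 difference of 1.43 (SE 0.15, adjusted p by limma 0.0248), and read 2191 and 798 in siErbB4 replicates 2 and 1 and 1691 and 728 in siScr replicates 2 and 1. Adcy5, a main adenylyl cyclase of heart muscle and an effector of Adrb1, rose by a log2 difference of 1.08 (SE 0.14, adjusted p by limma 0.0299). It read 2786 and 1433 in siErbB4 replicates 2 and 1, and 2532 and 1248 in siScr replicates 2 and 1. Kcnj3, a subunit of the potassium channel that muscarinic and adenosine receptors open in atrial and nodal cells, rose by a log2 difference of 0.87 (SE 0.14, adjusted p by limma 0.0467), at dim signals of 13.8 to 25.8. With normexp the Kcnj3 difference was 0.21 and its call ended (adjusted p by limma 0.386), as it did with transfection as a term in the fit (0.0504). Plcb1, a phospholipase C driven by Gq, fell by 1.08 on the log2 scale (SE 0.15, adjusted p by limma 0.0325), reading 158 and 288 in siErbB4 replicates 2 and 1 and 125 and 349 in siScr replicates 2 and 1. With normexp its difference was -0.69, and the mean of its probes gave -0.64 and no call (adjusted p by limma 0.196).

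Among inhibitors and regulators 1 of 17 tested was called. Akap5, an anchor that holds protein kinase A near its receptors and channels, fell by 1.14 on the log2 scale (SE 0.13, adjusted p by limma 0.0259). It read 2905 and 6565 in siErbB4 replicates 2 and 1, and 3111 and 7540 in siScr replicates 2 and 1.

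**Figure D3:**
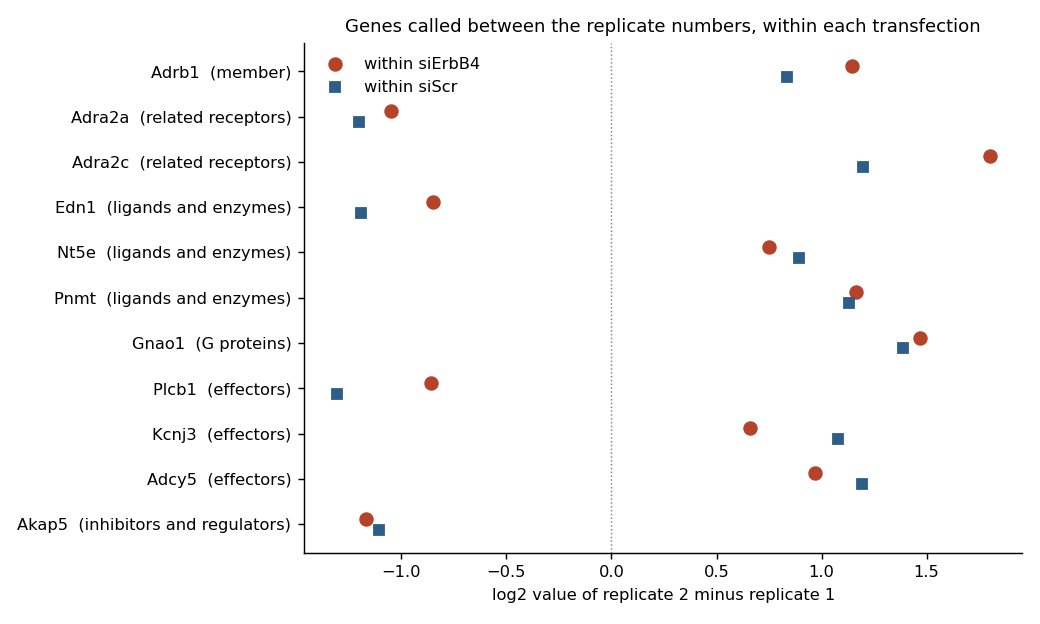
Log2 value of replicate 2 minus replicate 1 (x axis) within siErbB4 (circles) and within siScr (squares) for Adrb1 and the 10 listed pathway genes called between the numbers (y axis). At each gene both symbols lie on the same side of 0, with Adrb1 at 1.15 within siErbB4 and 0.84 within siScr.

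Markers of some cell types also differed between the replicate numbers. Over all features 5.23% were called, 2.89% higher and 2.34% lower, which is the background for the counts in each list. Summed signal over the 75th percentile for the 10 cardiomyocyte markers was 1369.8 and 1468 in the arrays numbered 2 (siErbB4, siScr), against 1198 and 1227 in those numbered 1, and 2 of 10 markers were called, both higher (Tnni3 and Ryr2). For 6 smooth muscle markers it was 241 and 248, against 429 and 541, most of it from Acta2 and Tagln. Of 5 tested, 3 were called, all lower (Acta2, Tagln and Lmod1). Cnn1 (-0.10) and Smtn (0.41) had no call, and Smtn was the 1 with a positive log2 difference. For 7 fibroblast markers the summed signal was 6.77 and 8.82, against 22.3 and 38.5, with 3 of 7 called, all lower (Col1a1, Pdgfra and Postn). Pericyte sums over 5 markers were 3.53 and 3.58, against 3.38 and 4.59. Of the 4 tested, Abcc9 was called higher, while Pdgfrb (-1.09), Rgs5 (-0.66) and Cspg4 (-0.08) had negative log2 differences without a call, for a list median of -0.37. Visceral endoderm and hepatic sums were 8.36 and 8.01, against 5.25 and 4.75, with 1 of 4 tested called, Afp, which was higher.

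The other marker lists had no call between the numbers. Endothelial sums were 3.47 and 4.50 in the arrays numbered 2, against 3.30 and 3.42, with Emcn well above background on no array. Most of that sum is Kdr, at signals of 2934 to 3814. The replicate difference was positive at 1 of the 4 endothelial markers tested, Kdr, and negative at Cdh5 (-1.51), Tek (-0.90) and Pecam1 (-0.06), for a median of -0.48. Neural crest and melanocyte sums were 8.61 and 7.41, against 7.73 and 5.03, with Dct at background. Undifferentiated stem cell sums were 27.2 and 24.0, against 36.6 and 22.8. Kcnj8 and Apoa1 were also well above background on no array. The part of these markers in the receptor differences was not tested. The 6 spike-in probes with every spot well above background differed between the numbers by -0.06 to 0.14 on the log2 scale.

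**Figure D4:**
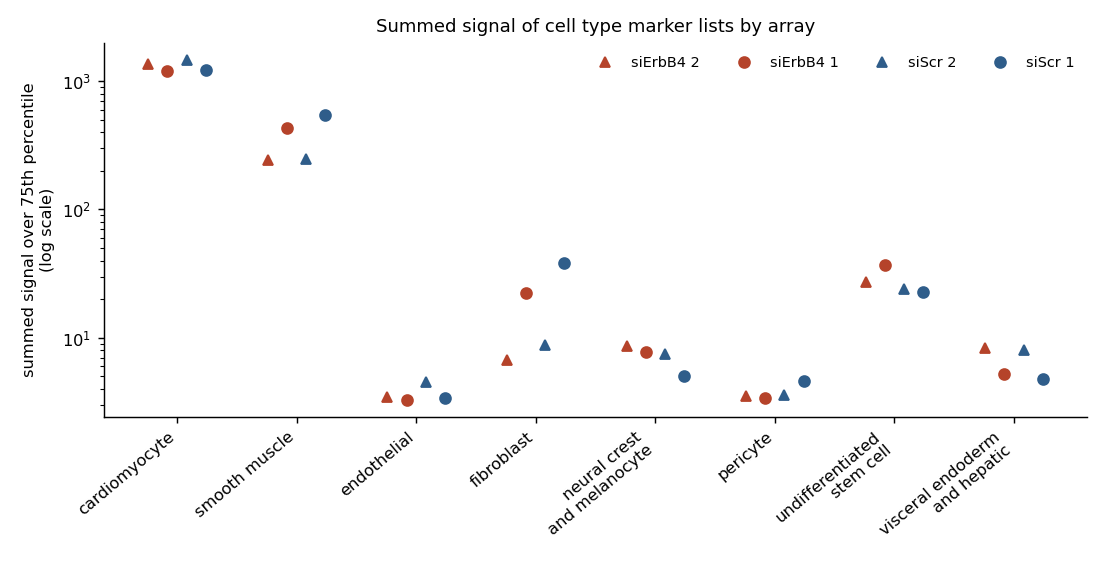
Summed signal of each cell type marker list over the array's 75th percentile (y axis, log scale) on the 4 arrays (colours for transfection, triangles for replicate 2 and circles for replicate 1). The fibroblast sums of 6.77 and 8.82 in the arrays numbered 2 lie below the 22.3 and 38.5 in those numbered 1.

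For the 2 receptors well above background on all arrays whose 4 values spanned 1 or more on the log2 scale, the genes of most similar pattern were sought among 14497 other named genes well above background on all arrays. Likeness was the Euclidean distance between the 4 log2 values after centring each gene. Adrb1 lay nearest to Vash2 (0.0385), Serpinb6b (0.0616) and Idh2 (0.0623). Agtr1a lay nearest to Smc2 (0.0467), Mdc1 (0.0586) and Fhl2 (0.0595). With 4 arrays many genes share such a pattern, and the distances are a description.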

How the data were processed

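Per the labels' protocols, dye-labelled copy RNA was made from total RNA. Per the file headers and the submitters' processing notes, arrays were read with Agilent Feature Extraction 10.7.1.1, which gave each spot an intensity, with background subtracted and detrended within the array but not scaled between arrays, and flags for background, saturation and outliers. A value table the authors deposited holds log2 values. Set against the scanner signals, each column matched log2 signal after division by its own 75th percentile (largest difference 0.00328), and its medians were -3.81 to -3.86.

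Of 44397 spots, 1377 control spots were left out, as were outlier-flagged spots, which removed 12 of 39429 probes. Spots of a probe were averaged, and log2 signal minus the 75th percentile over probes was analysed. A probe was kept where the 2 arrays of siErbB4 or of siScr were all well above background (25690 probes), and the brightest probe of a gene was used. RefSeq accessions named 27508 probes through a table of GRCm38.p6. The array's annotation names another build, so probes are given no coordinates.

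Both comparisons used limma 3.58.1 in R 4.3.3 (two-sided, 2 residual degrees of freedom, Benjamini-Hochberg over 20726 features, threshold 0.05), and this is the adjusted p meant throughout. The fit was tested on simulated data. For the siErbB4 comparison those data held no replicate difference, so they do not show its power here. The receptors, lists and alternatives were chosen with earlier results of these data known. The rule names all receptors, the pathway genes called in either comparison and the 3 genes nearest in pattern. Marker genes are named as called or undetected, as an example of signal (Myh6), or to show members of a mixed list that were not called. Alternatives were normexp (offset 50), quantile normalization, another scaling, both other filters, the mean of probes, the deposited table, another term in the fit and each array left out.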

Additional observations from a re-analysis of the deposited data

How the results depend on the processing

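The number of arrays limits every value. Between siErbB4 and siScr, 0 features, receptors and pathway genes were called under all 12 alternatives. A replicate block left 0 features called by limma, with 1547 at an unadjusted p under 0.05 in place of 366. Under it the Adrb1 difference stayed at -0.03, with an SE of 0.14 in place of 0.51. For Agtr1a it stayed at 0.29, with an SE of 0.13 in place of 0.46. The wider intervals of the main fit thus include the difference between the replicate numbers. The deviations of same-numbered arrays from their group means correlated at 0.679, but with 2 pairs and no label that explains the numbers, they are not taken as pairs. The siErbB4 minus siScr difference changed sign with an array left out at Adrb1 (-0.61 to 0.54), Adra1b (-0.37 to 0.13), Adora1 (-0.11 to 0.41), Agtr1a (-0.21 to 0.80) and Ednra (-0.087 to 0.47), and at Ednrb with the mean of its probes (-0.11). No reversed value was past the threshold, and the cause was not tested. A fit with 1 array left out also holds the replicate numbers unequally in the 2 groups. Within number 1 and number 2, siErbB4 minus siScr kept 1 sign at Adra1b (-0.20, -0.05), Agtr1a (0.42, 0.16) and Ednra (0.31, 0.07). At Adrb1 and Adora1 its sign differed between the numbers.

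Between the replicate numbers 1085 features, 1 receptor and 10 pathway genes were called. Normexp gave 1872 features and 2 receptors, transfection as a term 2 receptors, and keeping dim probes 0 features, 0 receptors and 0 pathway genes, with 32388 features tested. With arrays left out in turn, features called ranged from 0 to 1540, receptors from 0 to 2 and pathway genes from 0 to 10. No receptor changed sign between the numbers under any alternative. All arrays were on 1 slide, so slide was not run as a block.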

Other observations

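Values of 3 further pathway genes, chosen after they were seen, follow. Adrb3 and Dbh were tested between the replicate numbers and not called, and Chrm3 was not tested. Adrb3, the beta-3 adrenergic receptor, lay opposite to Adrb1 between the replicate numbers. It read 1289 and 1040.3 in the arrays numbered 2 (siErbB4, siScr), against 1790.3 and 1985 in those numbered 1, a log2 difference of -0.61 (SE 0.13, adjusted p by limma 0.0721). Chrm3, the Gq-coupled M3 muscarinic receptor, was well above background on both arrays numbered 1, at 62.7 in siErbB4 and 53.9 in siScr, and on neither numbered 2, at 9.15 in siErbB4 and 8.08 in siScr, so the filter on dim probes left it out. Dbh, the enzyme that makes noradrenaline from dopamine, read 189 and 219 in the arrays numbered 2 (siErbB4, siScr), against 53.5 and 115 in those numbered 1, a log2 difference of 1.47 (SE 0.37, adjusted p by limma 0.103).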
